A study of Mus musculus with 2 samples.

Results

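Glycolysis and the response to low oxygen were followed through 36 genes of the gonadal somatic cell transcriptome, out of 42422 genes in the count table. The genes were listed by name for their roles, with earlier results of these data known. They are 14 glycolytic enzymes, 3 transporters of sugar or lactate (*Slc2a1*, *Slc2a3* and *Slc16a3*), 2 genes that set the rate of glycolysis or of pyruvate entry (*Pfkfb3* and *Pdk1*) and 17 targets of hypoxia-inducible factor (HIF) outside glycolysis. All 36 symbols were matched to an identifier, and 35 passed the filter on low counts. The 36th, *Car9*, which encodes a carbonic anhydrase that is a classical marker of hypoxia, was at 0 in at least 1 library of every group and did not exceed 2.33 CPM (counts scaled to a common library size) in any library, so it was not tested.

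Mouse gonads were dissected at E12.5, when testis cords had formed in XY gonads, and the GFP-negative somatic cells were sorted away from the *Oct4*-eGFP germ cells. All groups came from 1 cross, of *Oct4*-eGFP males on a 129T2svJ background with Swiss females. Libraries were made from XX and XY cells before culture (0 h) and after 24 h and 72 h of gonad culture with the vehicle DMSO. Others were made from XY cells after 24 h and 72 h with 500 nM of the FGF receptor inhibitor BGJ398 (FGFRi) or of the MEK1/2 inhibitor PD0325901 (MEKi). Each of the 10 groups had 4 libraries, each a pool of gonads, and each library mixes all somatic cell types of the gonad. Gonads were cultured with the mesonephros attached, which was removed before sorting. The libraries came in 2 sets. Set 3 held both uncultured groups, both 24 h DMSO groups and MEKi at 24 h, and set 4 held FGFRi at 24 h and all 72 h groups. Groups were therefore compared within a set. Where groups lie in different sets, time or treatment and set cannot be told apart. Oxygen, glucose and lactate in the cultures were not analysed here.

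Glycolysis splits glucose into pyruvate in the cytosol. Glucose enters through the transporters encoded by *Slc2a1* and *Slc2a3*, is trapped by hexokinases, and is carried through aldolase, glyceraldehyde phosphate dehydrogenase, enolase and pyruvate kinase. Pyruvate is then either reduced to lactate by lactate dehydrogenase and exported, or taken into mitochondria. When oxygen is low, HIF1A and EPAS1 escape the prolyl hydroxylases encoded by *Egln1*, *Egln2* and *Egln3*, avoid destruction through VHL, pair with ARNT and activate many of the genes of this pathway, together with genes of mitophagy, collagen modification and vascular signalling. In the testis the pathway has been of interest because Sertoli cells are strongly glycolytic and pass lactate to germ cells. Whether they do so at the embryonic stage was not examined here.

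HIF complexes recognise the core letters ACGTG and GCGTG. These letters were searched on both strands in the 250 bases before the start of the canonical transcript of each gene (GENCODE M39, GRCm39), and overlapping matches were counted as 1 site. ACGTG was found in 16 of the 36 genes (44.4%), against 21% of the 12593 tested protein-coding genes. GCGTG was found in 17 (47.2% against 41.4%), either of them in 24 (66.7% against 52.9%), and 3 or more sites in 6 (16.7% against 7.19%). A match is a stretch of letters and not evidence of binding. Of the 9 genes that fell by at least 1.5-fold on the first day of culture in both XX and XY cells (given by role in the next paragraphs), *Ldha* and *Bnip3* each had 4 sites and *Pgk1* and *Ankrd37* had 2. *Eno1* had 1, and *Pfkl*, *Tpi1*, *Pkm* and *Pdk1* had no match in this window. Sites also lay before genes that were not among these 9, such as *P4ha2* and *Ndrg1* with 3 each. The stretches of the 4 genes with 2 or more sites are shown as those of the 9 with the most matches. The other 5 genes fell on the first day as well. They are written 5′ to 3′ on the gene's strand, with matches in capitals (a match on the other strand reads CACGT or CACGC), and stop short of any annotated exon, which removes 3 of the 4 *Ldha* sites from view.
*Pgk1*, chrX:105230456-105230705, plus strand: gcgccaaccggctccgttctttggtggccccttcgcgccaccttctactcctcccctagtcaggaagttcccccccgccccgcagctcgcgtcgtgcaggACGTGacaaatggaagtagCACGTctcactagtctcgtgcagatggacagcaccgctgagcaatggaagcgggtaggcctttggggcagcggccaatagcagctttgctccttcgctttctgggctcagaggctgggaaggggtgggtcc
*Ldha*, chr7:46495013-46495131, plus strand: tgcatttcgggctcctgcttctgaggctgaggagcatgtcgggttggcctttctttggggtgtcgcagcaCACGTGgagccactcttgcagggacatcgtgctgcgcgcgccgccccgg
*Bnip3*, chr7:138511254-138511503, minus strand: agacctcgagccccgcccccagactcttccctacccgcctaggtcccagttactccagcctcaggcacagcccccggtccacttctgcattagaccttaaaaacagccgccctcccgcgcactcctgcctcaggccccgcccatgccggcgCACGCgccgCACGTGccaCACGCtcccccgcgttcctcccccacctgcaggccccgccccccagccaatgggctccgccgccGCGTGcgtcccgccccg
*Ankrd37*, chr8:46452912-46453155, minus strand: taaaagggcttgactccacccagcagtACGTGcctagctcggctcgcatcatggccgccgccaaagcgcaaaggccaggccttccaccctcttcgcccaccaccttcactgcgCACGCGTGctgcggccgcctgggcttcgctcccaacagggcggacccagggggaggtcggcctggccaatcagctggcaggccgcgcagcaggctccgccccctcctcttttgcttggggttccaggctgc

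The libraries held between 1380707 and 4836550 counts. *Xist* was between 596.9 and 1054 CPM in the 12 XX libraries and at most 5.15 CPM in the 28 XY libraries, while *Ddx3y* was at most 1.27 CPM in XX and at least 36.2 CPM in XY libraries, so every library matched its sex label. The libraries of a group are pools of different gonads, and p-values measure the spread between these pools. Marker genes of other cell types also moved with culture. Over the first day, all 9 erythroid markers fell in XY and in XX cells, with a share of all counts of 1.48 to 1.85% at 0 h and 0.297 to 0.811% at 24 h in XY libraries, and 0.872 to 1.49% and 0.101 to 0.218% in XX libraries. In XY cells 3 of 5 Sertoli markers fell (summed level 1182 to 1221 CPM at 0 h and 537 to 857 CPM at 24 h), and 4 of 5 interstitial markers rose (862 to 1088 CPM and 1373 to 1693 CPM). Of the other lists in XY cells, 3 of 4 foetal Leydig markers rose, 2 of 5 pre-granulosa markers rose and 2 fell, and 1 of 4 macrophage and 1 of 4 germ cell markers fell. None of 6 endothelial or 2 duct epithelium markers passed or had an unadjusted p below 0.05 in edgeR. In XX cells no Sertoli marker passed (1 had an unadjusted p below 0.05), 2 of 5 interstitial and 2 of 4 germ cell markers rose, and 2 foetal Leydig markers rose and 1 fell. In the same cells 1 pre-granulosa marker rose and 1 fell, 1 endothelial and 1 macrophage marker fell, and 1 of 2 duct epithelium markers rose. *Insl3*, a foetal Leydig marker, had no count in any XX library. The part of these shifts in the results for the 36 genes was not tested. In bulk libraries, fewer cells of a type and less RNA per cell cannot be told apart.

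The first comparison asked how the 36 genes changed between uncultured cells and cells cultured for 24 h in DMSO. Most glycolytic enzymes fell. In XY cells, 17 of the 35 tested genes fell and 1 rose (edgeR, Benjamini-Hochberg FDR below 0.05 over 15125 genes), and 16 of the 17 fell by at least 1.5-fold, the size used with the FDR to call a differentially expressed gene (DEG). Over all genes tested, 11.1% fell and 12% rose, and 5.5% were DEGs that fell and 8.92% DEGs that rose. In XX cells, 15 of 35 fell and 1 rose, with 12 DEGs, all lower, against 4.48% of all genes that fell, 7.42% that rose and 2.27% that were DEGs that fell. The median log2 change of the 35 genes was -0.48 in XY and -0.32 in XX cells, beside 0.03 in each over all genes. The 36 genes together took up 0.425 to 0.471% of all counts in XY libraries at 0 h and 0.263 to 0.276% at 24 h, and 0.439 to 0.448% and 0.296 to 0.325% in XX libraries, with no overlap between the times. Culture and a day of development cannot be told apart in this design.

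**Figure D1:**
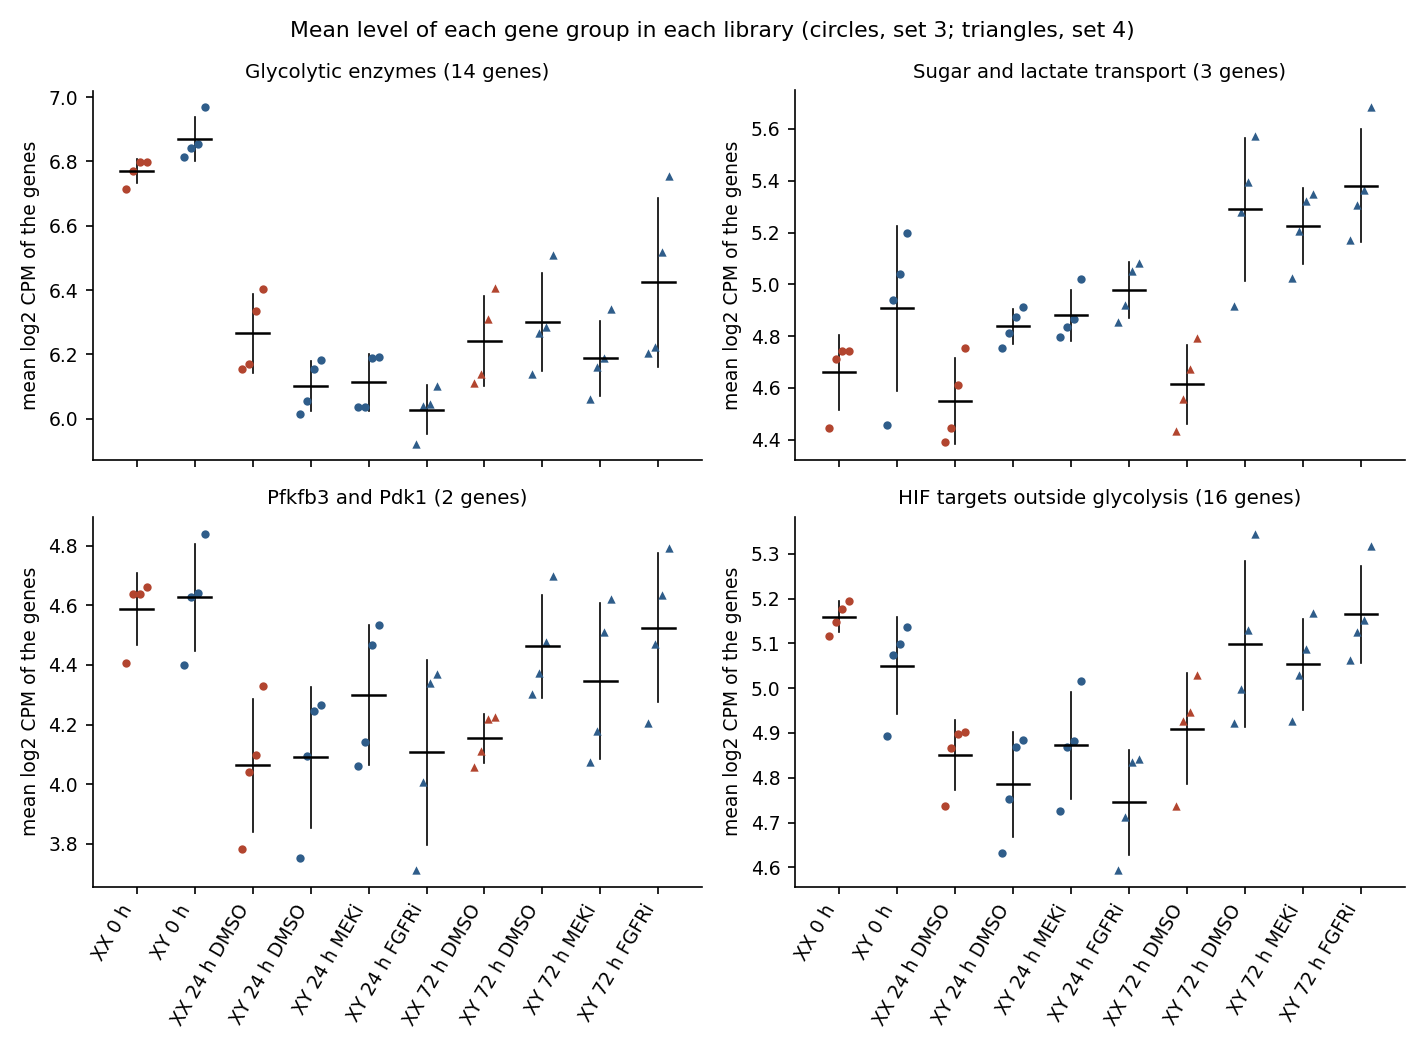
Mean log2 CPM of the genes of each role (y axes, which do not start at 0) in each library of the 10 groups (x axis); points are libraries (circles set 3, triangles set 4), red XX and blue XY, horizontal bars are means and vertical bars SD (n = 4). The 14 glycolytic enzymes averaged 6.81 to 6.97 in uncultured XY libraries and 6.02 to 6.18 after 24 h in DMSO, while the transporters overlapped between these groups.

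Of the 14 glycolytic enzymes, 10 fell in XY cells, all of them DEGs, and 8 fell in XX cells, 6 of them DEGs. The largest changes in XY cells were in enolase and lactate dehydrogenase. *Eno1* (ENSMUSG00000063524.13, chr4:150321073-150337027, plus strand), which makes phosphoenolpyruvate, was at 646, 654, 669.5 and 696 CPM in the 4 uncultured XY libraries and at 193, 198, 229 and 239 CPM after 24 h. In XX cells it was at 456, 524, 541 and 546 CPM and then at 173, 181, 199 and 234 CPM. The libraries of the 2 times did not overlap in either sex (log2 -1.64, SE 0.12, FDR 3.43e-15 in XY and log2 -1.39, SE 0.12, FDR 1.63e-12 in XX). *Eno1b*, a near-identical retrogene, had changes of almost the same size (log2 -1.59, FDR 1.99e-15 in XY and -1.37, FDR 6.33e-13 in XX), and reads could be split between the 2 loci, so the level of each is uncertain. *Ldha* (ENSMUSG00000063229.15, chr7:46490899-46505061, plus strand), which reduces pyruvate to lactate and whose promoter held 4 sites, was at 491, 565, 635 and 666 CPM in uncultured XY cells and at 184, 209.9, 216 and 223 CPM after 24 h (log2 -1.50, SE 0.11, FDR 2.41e-15). All cultured libraries were below all uncultured ones in both sexes. XX libraries were at 485, 491, 543 and 605 CPM and then 227, 255, 263 and 301 CPM (log2 -1.02, SE 0.11, FDR 6.41e-10).

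In the upper part of the pathway, *Pfkl*, the liver-type phosphofructokinase, was at 128, 133, 154 and 159 CPM in uncultured XY libraries and at 59.2, 69.2, 69.9 and 77.2 CPM after 24 h (log2 -1.06, SE 0.13, FDR 9.38e-09). In XX libraries it was at 140.0, 141, 143 and 150.1 CPM and then 70.8, 74.2, 75.4 and 98.2 CPM (log2 -0.85, SE 0.13, FDR 3.08e-06). *Aldoa*, the main aldolase, was at 695, 768, 784 and 804 CPM and then 313, 380.2, 428 and 431 CPM in XY cells (log2 -0.98, SE 0.10, FDR 1.55e-10). In XX cells it was at 663, 699, 734 and 758 CPM and then 531, 538, 563 and 682 CPM, a smaller fall with overlapping libraries (log2 -0.30, SE 0.10, FDR 0.041). *Tpi1*, which interconverts the triose phosphates, fell in both sexes, from 247, 266, 273 and 276 CPM to 138, 140.1, 164 and 175 CPM in XY (log2 -0.79, SE 0.10, FDR 5.57e-08). XX libraries fell from 281, 303, 308 and 317 CPM to 145, 156, 169.9 and 186 CPM (log2 -0.88, SE 0.10, FDR 6.21e-09). *Gpi1*, which turns glucose phosphate into fructose phosphate, fell in XY cells from 196, 202, 206 and 211 CPM to 122, 132, 134 and 134 CPM (log2 -0.64, SE 0.10, FDR 8.63e-07). XX libraries were at 137, 171, 175 and 197 CPM and then 134, 153, 157 and 171 CPM, which overlapped and did not pass (FDR 0.339).

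In the lower part of the pathway, *Gapdh* fell from 123, 137, 139.6 and 162 CPM to 72, 77.5, 80.8 and 81.1 CPM in XY cells (log2 -0.85, SE 0.12, FDR 3.03e-07). In XX cells it fell from 133, 134, 137 and 141 CPM to 81.7, 86.7, 97 and 106 CPM (log2 -0.55, SE 0.12, FDR 0.00101). This gene, often used as a constant reference, thus took a smaller share of all counts after a day of culture. *Pkm*, pyruvate kinase, fell from 582, 599.7, 631 and 713 CPM to 318, 322, 338 and 341 CPM in XY (log2 -0.94, SE 0.10, FDR 1.87e-10). The fall in XX cells was from 530.3, 579.6, 635 and 667 CPM to 337, 386, 387 and 406 CPM (log2 -0.67, SE 0.10, FDR 1.32e-06). *Pgk1*, the X-linked phosphoglycerate kinase, was counted at low levels, 15.3, 16, 17.8 and 19.5 CPM in uncultured XY libraries and 7.41, 9.13, 9.57 and 11.2 CPM after 24 h (log2 -0.89, SE 0.28, FDR 0.0142). In XX libraries it was at 12.3, 13.6, 14.6 and 18.2 CPM and then 5.92, 7.13, 7.21 and 7.86 CPM (log2 -1.08, SE 0.29, FDR 0.00929). Its call in XY cells was lost without the 24 h DMSO library M3 (log2 -0.79, FDR 0.0606). *Pgam1*, a phosphoglycerate mutase, fell in XY cells from 34.6, 36.7, 40.2 and 49.9 CPM to 19.3, 23.4, 24 and 24.1 CPM (log2 -0.84, SE 0.16, FDR 5.25e-05). Its XX libraries were at 26.9 to 36.4 CPM and then 21.2 to 31 CPM (FDR 0.211). *Gapdh*, *Pgk1*, *Pgam1*, *Ldha*, *Tpi1* and *Aldoa* have processed copies elsewhere in the genome, so reads may have been lost or shared between copies and their levels are uncertain.

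The hexokinases *Hk1* and *Hk2*, the platelet-type phosphofructokinase *Pfkp* and the brain-type aldolase *Aldoc* did not pass in either sex. Their log2 changes were -0.28, -0.36, -0.44 and 0.27 in XY cells, and 0.01, -0.06, 0.01 and 0.25 in XX cells, in that order. Of the transporters, *Slc2a1*, the main glucose importer of embryonic cells, fell in XY cells from 53.1, 57.5, 57.9 and 67.8 CPM to 30.8, 38.3, 40.5 and 45.5 CPM (log2 -0.59, SE 0.16, FDR 0.00486). This fall was just over 1.5-fold, and without the 0 h library M2 or the 24 h library M2 it was smaller than that (log2 -0.53 and -0.50). In XX cells *Slc2a1* was at 34.2, 43.7, 51.6 and 60.7 CPM and then 33.1, 36.4, 36.5 and 40.03 CPM, and did not pass (FDR 0.147). *Slc2a3*, a transporter with high affinity for glucose, and *Slc16a3*, which exports lactate, did not pass (log2 0.20 and -0.08 in XY, 0.31 and -0.17 in XX cells).

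*Pdk1*, the kinase that shuts pyruvate dehydrogenase and so keeps pyruvate out of the citrate cycle, fell in both sexes. It was at 39.3, 44.3, 48.9 and 50.3 CPM in uncultured XY libraries and at 15.6, 17.5, 18.9 and 20.7 CPM after 24 h (log2 -1.31, SE 0.17, FDR 2.03e-08). In XX libraries it was at 47.7, 51.8, 60.2 and 73 CPM and then 29.9, 30.3, 33.9 and 35.4 CPM (log2 -0.86, SE 0.16, FDR 7.09e-05). *Pfkfb3*, which makes the activator of phosphofructokinase, did not pass (log2 0.20 in XY and -0.17 in XX cells).

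**Figure D2:**
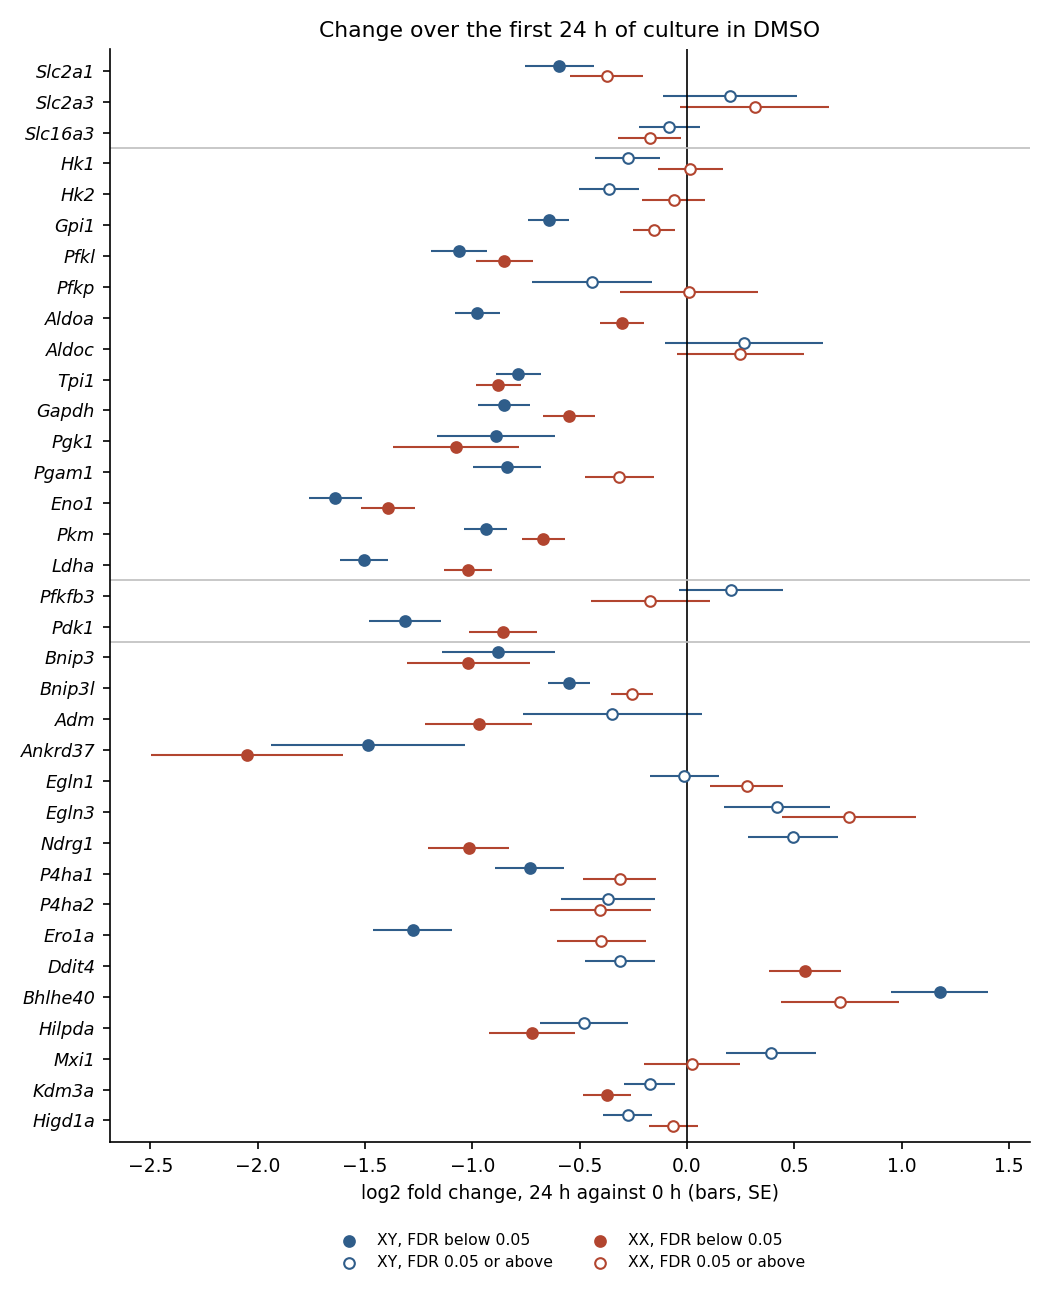
Log2 fold change of the 35 tested genes between 0 h and 24 h in DMSO (x axis), by gene (y axis, grouped by role from transporters at the top to HIF targets at the bottom), for XY (blue) and XX (red) cells; bars are SE and filled points have an FDR below 0.05. *Eno1* lies at -1.64 in XY and -1.39 in XX cells, and *Bhlhe40* at 1.18 in XY cells is the filled point farthest to the right.

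The 17 HIF targets outside glycolysis were more mixed. Of the 16 tested, 5 fell and 1 rose in XY cells, and 6 fell and 1 rose in XX cells. *Bnip3*, a receptor for mitophagy with 4 promoter sites, was at 16, 17.6, 18.6 and 22.4 CPM in uncultured XY cells and at 7.9, 8.95, 10.8 and 13.5 CPM after 24 h (log2 -0.88, SE 0.26, FDR 0.0106). XX cells held 13.1, 13.2, 16.2 and 17.4 CPM and then 3.84, 6.28, 6.39 and 12.2 CPM (log2 -1.02, SE 0.29, FDR 0.0114). These calls were lost without the XY 24 h DMSO library M3 (FDR 0.0511) or the XX 24 h DMSO library F6 (FDR 0.052). Its paralogue *Bnip3l*, which clears mitochondria from maturing red cells among others, fell in XY cells from 279, 296, 304 and 326 CPM to 175, 195, 224 and 232 CPM (log2 -0.55, SE 0.10, FDR 2.21e-05). In XX cells it ranged from 276 to 322 CPM before and 229 to 267 CPM after culture (FDR 0.0792). *Ankrd37*, a direct HIF target that encodes an ankyrin repeat protein, was at 5.62, 7.12, 7.13 and 10.2 CPM in XY cells at 0 h and at 0.952, 1.55, 3.46 and 4.96 CPM after 24 h (log2 -1.49, SE 0.45, FDR 0.0122). XX cells held 5.94, 8.34, 15.7 and 17.7 CPM and then 1.48, 1.96, 3.48 and 4.8 CPM (log2 -2.05, SE 0.45, FDR 0.000771). These are low counts, and the XY call was lost without the 0 h library M3 (log2 -1.32, FDR 0.0519) or the 24 h library M4 (log2 -1.13, FDR 0.082).

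*Ero1a*, an oxidase of the endoplasmic reticulum that forms disulphide bonds, fell in XY cells from 37.1, 65.2, 68.4 and 72.7 CPM to 22.1, 24.8, 26.1 and 26.4 CPM (log2 -1.28, SE 0.18, FDR 3.26e-07). The lowest uncultured library was far below the other 3 but still above every cultured one. *P4ha1*, a collagen prolyl hydroxylase subunit, fell in XY cells from 84.7, 89.8, 94.4 and 95.3 CPM to 39.1, 47.4, 61.3 and 70.1 CPM (log2 -0.73, SE 0.16, FDR 0.000445). In XX cells neither passed (FDR 0.222 and 0.245). The genes that fell by at least 1.5-fold in XX but did not pass in XY cells were *Adm*, *Ndrg1* and *Hilpda*. *Adm*, the vasodilator peptide adrenomedullin, was at 39.7, 50.04, 56 and 60.03 CPM in uncultured XX libraries and at 21.6, 25.5, 26.5 and 29.8 CPM after 24 h (log2 -0.97, SE 0.25, FDR 0.00516). *Ndrg1*, a stress-responsive gene of differentiating cells, was at 46.2, 57.7, 64.8 and 65.4 CPM and then 25.3, 29.3, 30.3 and 31.4 CPM (log2 -1.02, SE 0.19, FDR 6.97e-05), with no overlap between the times. *Hilpda*, a lipid droplet protein, was at 23.7, 25.8, 27.6 and 32.3 CPM and then 12.9, 15.4, 17.2 and 20.03 CPM (log2 -0.72, SE 0.20, FDR 0.0111). The *Hilpda* call was lost without the XX 24 h DMSO library F4 (log2 -0.62, FDR 0.0528). In XY cells their log2 changes were -0.35, 0.50 and -0.48. *Kdm3a*, a histone demethylase, also fell in XX cells (log2 -0.37, FDR 0.0171).

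Against the general fall, *Bhlhe40*, a transcriptional repressor with a role in the circadian clock, rose in XY cells. Its XY libraries were at 7.6, 12.2, 13 and 17.3 CPM before culture and at 27.6, 28, 28.2 and 30.1 CPM after 24 h, with no overlap (log2 1.18, SE 0.23, FDR 6.56e-05). XX libraries ranged over 3.37 to 10.1 CPM and then 7.07 to 16.3 CPM (FDR 0.0839). *Ddit4*, an inhibitor of mTORC1, rose in XX cells from 25.9, 38.6, 42.3 and 55.8 CPM to 53.4, 54.4, 61 and 70.3 CPM (log2 0.55, SE 0.17, FDR 0.0222), with overlapping libraries. Its range was 43 to 67.4 CPM and then 38.3 to 59.5 CPM in XY cells. The hydroxylases *Egln1* and *Egln3*, with *P4ha2*, *Mxi1* and *Higd1a*, did not pass in either sex. Their log2 changes lay between -0.37 (*P4ha2*) and 0.42 (*Egln3*) in XY cells and between -0.40 (*P4ha2*) and 0.76 (*Egln3*) in XX cells.

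The change over the first day differed between XX and XY cells for 6 genes (interaction, FDR below 0.05), 4 of them with a difference of at least 1.5-fold, against 6.89% and 6.21% of all genes. *Aldoa* fell less in XX cells (difference of the log2 changes 0.67, SE 0.14, FDR 0.00116), as did *Ero1a* (0.88, SE 0.28, FDR 0.0405), *Gpi1* (0.49, SE 0.14, FDR 0.0176) and *Ldha* (0.48, SE 0.16, FDR 0.0487). *Ndrg1* went the other way, and fell in XX cells but did not pass in XY cells (-1.51, SE 0.28, FDR 0.000171), and *Ddit4* rose in XX cells relative to XY cells (0.86, SE 0.23, FDR 0.0141). The *Ero1a* difference was kept at FDR below 0.05 and 1.5-fold in 4 of 16 fits that left out 1 library, with an FDR of up to 0.0987, and the *Aldoa* and *Ddit4* differences in 14 of 16 each. Without the XX 24 h library F9 or the XY 24 h library M3 the *Aldoa* difference was log2 0.57 and 0.58, and without the XX 0 h library F3 or the XY 0 h library M6 the *Ddit4* difference had an FDR of 0.0602 and 0.05002.

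Other genes of the same pathways, from lists of companion genes, moved less uniformly. The shares to read their counts against are those over all genes tested. Of these, 11.1% fell and 12% rose in XY cells, and 4.48% fell and 7.42% rose in XX cells. Of 20 tested further isoforms and enzymes of glucose breakdown, 5 fell and 2 rose in XY cells and 2 fell in XX cells. The largest falls in XY cells were of the muscle-type mutase *Pgam2* (log2 -1.83, FDR 0.00322), of *Eno1b* and of *Bpgm*, which makes the effector of haemoglobin in red cells (log2 -1.24, FDR 1.42e-06). *Ldhb*, the other lactate dehydrogenase subunit, fell in both sexes (log2 -1.19, FDR 1.72e-08 in XY and -0.43, FDR 0.047 in XX cells). Its XY libraries were at 1291 to 1721 CPM before culture and 438 to 840 CPM after 24 h, with no overlap. *Pfkfb2* and *Tigar*, a bifunctional phosphofructokinase regulator and a bisphosphatase, both rose in XY cells (log2 1.70, FDR 0.0303 and 1.13, FDR 0.0263). Both are low counts. *Pfkfb2* was at 0.475 to 1.53 CPM (1 to 3 counts) before culture and 2.09 to 5.42 CPM after 24 h. *Tigar* was at 1.9 to 5.18 CPM and then 4.69 to 10.8 CPM. Of 28 genes of pyruvate entry and the citrate cycle, 6 fell in XY cells, none by 1.5-fold, and 1 rose, and none passed in XX cells, where 4 had an unadjusted p below 0.05. The largest of the falls were of *Mpc2*, a mitochondrial pyruvate carrier subunit (log2 -0.54, FDR 0.000114), *Pdk3* (-0.45, FDR 0.0273) and *Idh3a* (-0.42, FDR 0.0258), while the gene that rose was *Pdp2*, a pyruvate dehydrogenase phosphatase (0.90, FDR 0.000161). Of 7 pentose phosphate pathway genes, *Pgls* fell (log2 -0.39, FDR 0.00259) and *Tkt* rose (log2 0.32, FDR 0.0318) in XY cells, and none passed in XX cells, where 1 had an unadjusted p below 0.05. The median log2 change was -0.01, -0.12 and -0.27 for these 3 lists in XY cells, and -0.18, 0.04 and -0.14 in XX cells.

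Among 13 regulators of HIF itself, *Epas1* (log2 1.24, FDR 4e-05) and *Hif3a* (log2 1.27, FDR 8.13e-05) rose in XY cells, and *Cited2*, a competitor of HIF for its coactivator (log2 -0.82, FDR 1.61e-06), and *Elob*, a partner of VHL (log2 -0.46, FDR 0.000169), fell. *Hif1a* was at log2 -0.10, FDR 0.47 in XY cells and rose in XX cells (log2 0.27, FDR 0.0323), where *Epas1* was at log2 0.16, FDR 0.756. *Arnt*, *Vhl*, *Egln2* and *Hif1an* did not pass in either sex, with log2 changes of 0.13, 0.06, 0.03 and -0.23 in XY cells and 0.00, 0.05, 0.20 and -0.37 in XX cells. Of 39 tested further HIF targets, 11 rose and 5 fell in XY cells, beside 12% and 11.1% of all genes. In XX cells 5 of these targets rose and 4 fell, beside 7.42% and 4.48% of all genes. The medians of this list were 0.13 in XY and -0.08 in XX cells. In XY cells the largest increases were of *Pgf*, placental growth factor (log2 2.98, FDR 8.3e-16), *Cxcr4*, a chemokine receptor (1.77, FDR 0.0169), and *Lox*, which crosslinks collagen (1.49, FDR 3.88e-05). The largest decreases were of *Stc2* (-1.28, FDR 2.59e-06), *Mif* (-0.94, FDR 7.07e-10) and *Hmox1* (-0.82, FDR 9.13e-05). In XX cells the largest increases were of *Pgf* (1.41, FDR 0.000461), *Stc2* (1.14, FDR 0.000254) and *Stc1* (1.13, FDR 8.71e-05), and decreases of *Selenbp2* (-0.67, FDR 0.0106), *Mif* (-0.66, FDR 4.96e-06) and *Selenbp1* (-0.62, FDR 0.000361). *Stc2*, which encodes a stanniocalcin, was thus among the largest decreases in XY and among the largest increases in XX cells.

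After the first day, levels at 72 h were compared with those at 24 h within set 4 for FGFRi. Between these times 13 of the 35 genes rose and none fell, 10 of them DEGs (19 had an unadjusted p below 0.05 in edgeR, and DESeq2 gave the same counts), against 5.33% of all genes that rose, 3.37% that fell and 4.38% that were DEGs that rose. *Ldha* was at 189, 202, 225 and 238 CPM at 24 h and at 302, 347, 366 and 374 CPM at 72 h (log2 0.70, SE 0.11, FDR 9.71e-06). *Tpi1* was at 131, 133, 137 and 147 CPM and 179, 209, 243 and 255 CPM (log2 0.70, SE 0.11, FDR 3.7e-06), and *Pdk1* was at 12, 13.6, 16.1 and 16.7 CPM and 23.3, 24, 27.9 and 32.7 CPM (log2 0.88, SE 0.19, FDR 0.000892). *Bnip3* was at 7.69, 8.87, 11.7 and 12 CPM and 12.9, 22.1, 25.8 and 26 CPM (log2 1.09, SE 0.27, FDR 0.00498). *Adm* was at 1.36, 2.01, 3.04 and 4.73 CPM and 12.5, 12.6, 16.1 and 26.7 CPM (log2 2.66, SE 0.39, FDR 1.14e-06). These 5 genes are given because they were DEGs, so their values in each library are no separate support for the calls. The other DEGs were *Pfkl* (log2 0.69), *Pfkp* (1.01), *Ndrg1* (0.80), *P4ha1* (0.71) and *P4ha2* (0.77), and *Eno1* (0.50), *Hk2* (0.55) and *Slc16a3* (0.55) rose by less than 1.5-fold. The *Pfkp* call was kept in 3 of 8 fits with a library left out and the *P4ha2* call in 6 of 8. Those of *Pfkl*, *Ndrg1* and *P4ha1* were each lost without 1 library (72 h M5 with log2 0.57, 24 h M5 with FDR 0.0599 and 24 h M4 with log2 0.54). A test at a threshold of 1.5-fold kept only *Adm*. Over the same interval the erythroid markers summed to 3465 to 7416 CPM and 711 to 1938 CPM, and the endothelial markers to 116 to 191 CPM and 45.9 to 93.6 CPM, and their part in the rise was not tested.

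In DMSO the 24 h and 72 h groups lie in different sets, so their levels are given side by side without a test. The 9 genes that were DEGs and lower in both sexes on the first day were *Pfkl*, *Tpi1*, *Pgk1*, *Eno1*, *Pkm*, *Ldha*, *Pdk1*, *Bnip3* and *Ankrd37*. They were chosen by low values in the same 24 h libraries that are set beside 72 h here. Such a choice by itself favours higher shares at 72 h. *Ldha* stood at 35.3% of its uncultured mean after 24 h and at 57.9% after 72 h in XY cells, and at 49.2% and 58.3% in XX cells. *Eno1* stood at 32.2% and 36.1% in XY and at 38.1% and 42.1% in XX cells. *Bnip3* stood at 55.1% and 114% in XY cells and at 48% and 62.7% in XX cells, and *Tpi1* at 58.2% and 82.9% and at 54.3% and 67.3%. Not all of the 9 genes were higher at 72 h. The means of *Pdk1*, *Pgk1* and *Pkm* in XX cells, and of *Pgk1* in XY cells, were lower at 72 h than at 24 h. In XX libraries *Pdk1* was at 29.9 to 35.4 CPM at 24 h and 21.5 to 31.1 CPM at 72 h. Over the 35 genes the median was 70.8% and 82.1% in XY and 79.9% and 74.6% in XX cells.

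**Figure D3:**
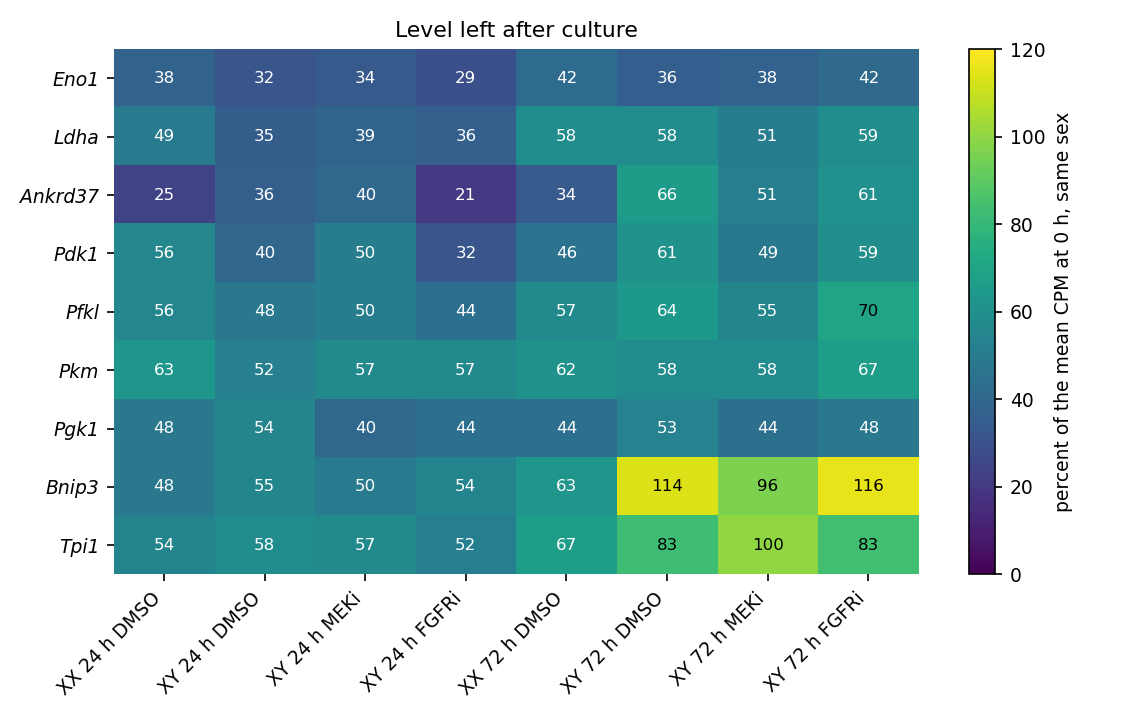
Mean CPM of the 9 genes that were lower by at least 1.5-fold in both sexes after the first day (rows), as a percentage of the uncultured mean of the same sex, in the 8 cultured groups (columns); colour and number show the same value. *Eno1* stayed between 29.5% and 42.1% in all 8 groups. *Bnip3* was above its uncultured mean in XY cells at 72 h in DMSO (114%) and with FGFRi.

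The next comparison asked how XX and XY somatic cells differed in these genes before culture and after 24 h and 72 h in DMSO, each within 1 set. Of the 35 genes, 4 were DEGs that were higher and 5 DEGs that were lower in XX cells before culture, beside 8.01% and 9.32% of all genes. At 24 h there were 4 higher and 4 lower (9.24% and 10.4% of all genes), and at 72 h 2 higher and 8 lower (9.47% and 10.8%). *Kdm3a* was higher in XX cells at all 3 times. Its XX libraries held 221, 274, 289 and 309 CPM before culture, 187, 203, 214 and 237 CPM at 24 h and 141, 144, 159 and 169 CPM at 72 h. Its XY libraries held 76.9, 79.5, 92.1 and 93.3 CPM, 72, 75.5, 76.9 and 77.8 CPM and 61.6, 63.9, 76.5 and 78.5 CPM. Every XX library was above every XY library (3.19-fold, 2.78-fold and 2.18-fold, with FDR 4.07e-17, 1.17e-15 and 5.88e-11). *Aldoc* was also higher in XX cells at each time, with 11.9, 12.7, 22.1 and 23.1 CPM against 3.57, 6.91, 7.12 and 7.91 CPM before culture (log2 1.42, SE 0.35, FDR 0.00157). At 24 h it was at 13.2, 21.6, 23.1 and 24 CPM against 6.09, 7.44, 8.4 and 9.28 CPM (log2 1.403, SE 0.30, FDR 0.000251). At 72 h it was at 22.4, 22.8, 25.5 and 33.5 CPM against 4.63, 7.43, 14.8 and 15.6 CPM (log2 1.32, SE 0.31, FDR 0.000743). No XX library overlapped an XY library of the same time. The other aldolase, *Aldoa*, did not differ beyond the threshold before culture (log2 -0.10, FDR 0.566) and was higher in XX cells by less than 1.5-fold at 24 h and 72 h (log2 0.58 and 0.39).

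*Adm* had the largest difference between the sexes of the 35 genes before culture and at 24 h. Before culture it was at 39.7, 50.04, 56 and 60.03 CPM in XX and 2.59, 3.57, 5.65 and 6.17 CPM in XY libraries (11.4-fold, FDR 5.9e-13). At 24 h it was at 21.6, 25.5, 26.5 and 29.8 CPM and 1.16, 3.9, 3.997 and 4.2 CPM (7.4-fold, FDR 6.23e-11). At 72 h it was at 12.1, 13.5, 18.4 and 21.8 CPM and 6.62, 11.3, 12.9 and 14.8 CPM, an overlapping range (log2 0.54, SE 0.30, FDR 0.183). The difference between the sexes changed from 24 h to 72 h for 4 of the 35 genes, all DEGs and all lower in XX relative to XY cells at 72 h (0.873% of all genes). For *Adm* it was smaller at 72 h (difference of the log2 values -2.35, SE 0.44, FDR 0.000589, a comparison that spans both sets and was chosen once the values were known). *Ndrg1* was higher in XX cells before culture, 46.2, 57.7, 64.8 and 65.4 CPM against 13, 16.9, 19.5 and 24.5 CPM (log2 1.66, SE 0.20, FDR 3.17e-09). The values at 24 h were 25.3, 29.3, 30.3 and 31.4 CPM against 18.1, 23.2, 28.6 and 32.5 CPM (FDR 0.631). *Pdk1* was higher in XX cells at 24 h (log2 0.82, SE 0.17, FDR 9.22e-05), with the values given for the first day, and did not pass before culture (FDR 0.0887) or at 72 h (FDR 0.886). Pre-granulosa markers summed to 902 to 1191 CPM in uncultured XX and 58.7 to 72.4 CPM in uncultured XY libraries, and Sertoli markers to 80.8 to 183 CPM and 1182 to 1221 CPM. At all 3 times all 5 pre-granulosa markers were higher and all 5 Sertoli and all 5 interstitial markers lower in XX cells, and the part of the cell mix in the differences between the sexes was not tested.

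Genes lower in XX cells included *Bhlhe40*, which was lower at all 3 times, with 3.37, 5.39, 9.34 and 10.1 CPM against 7.6, 12.2, 13 and 17.3 CPM before culture (log2 -0.82, SE 0.29, FDR 0.0287). At 24 h it was at 7.07, 10.8, 12.8 and 16.3 CPM against 27.6, 28, 28.2 and 30.1 CPM (log2 -1.28, SE 0.22, FDR 3.48e-06). At 72 h it was at 16.3, 17.1, 18.8 and 21 CPM against 35.8, 36.5, 41.1 and 47.1 CPM (log2 -1.11, SE 0.21, FDR 3.47e-05). The libraries overlapped before culture and not afterwards, and the call before culture was kept in 4 of 8 fits with a library left out. *Egln3*, a HIF prolyl hydroxylase, was lower in XX cells before culture, 2.996, 4.39, 6.16 and 8.06 CPM against 9.5, 9.97, 18.1 and 19.4 CPM (log2 -1.40, SE 0.31, FDR 0.000311). At 24 h it was at 5.5, 8.01, 9.61 and 12.1 CPM against 14.5, 17.3, 19.8 and 24 CPM (log2 -1.07, SE 0.25, FDR 0.000698). The sexes did not overlap at either time. *Ero1a* was at 21.2, 24.6, 28.1 and 28.5 CPM in XX and 37.1, 65.2, 68.4 and 72.7 CPM in XY cells before culture (log2 -1.25, SE 0.19, FDR 7e-07). It did not pass afterwards (FDR 0.168 and 0.397). *P4ha1* was likewise lower before culture, 53.5, 59.7, 63.1 and 64.4 CPM against 84.7, 89.8, 94.4 and 95.3 CPM (log2 -0.60, SE 0.17, FDR 0.00471). The difference shrank below 1.5-fold without XX library F2 (log2 -0.54) or XY library M2 (log2 -0.58). *Pfkp* was at 4.83, 5.39, 8.99 and 9.34 CPM in XX and 12.4, 12.7, 16.6 and 16.9 CPM in XY cells before culture (log2 -1.003, SE 0.31, FDR 0.0126, and FDR 0.0638 without XX library F3). At 72 h it was at 3.11, 5.13, 8.22 and 10.1 CPM against 10.9, 12.9, 15.9 and 17.8 CPM (log2 -1.06, SE 0.31, FDR 0.00636).

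**Figure D4:**
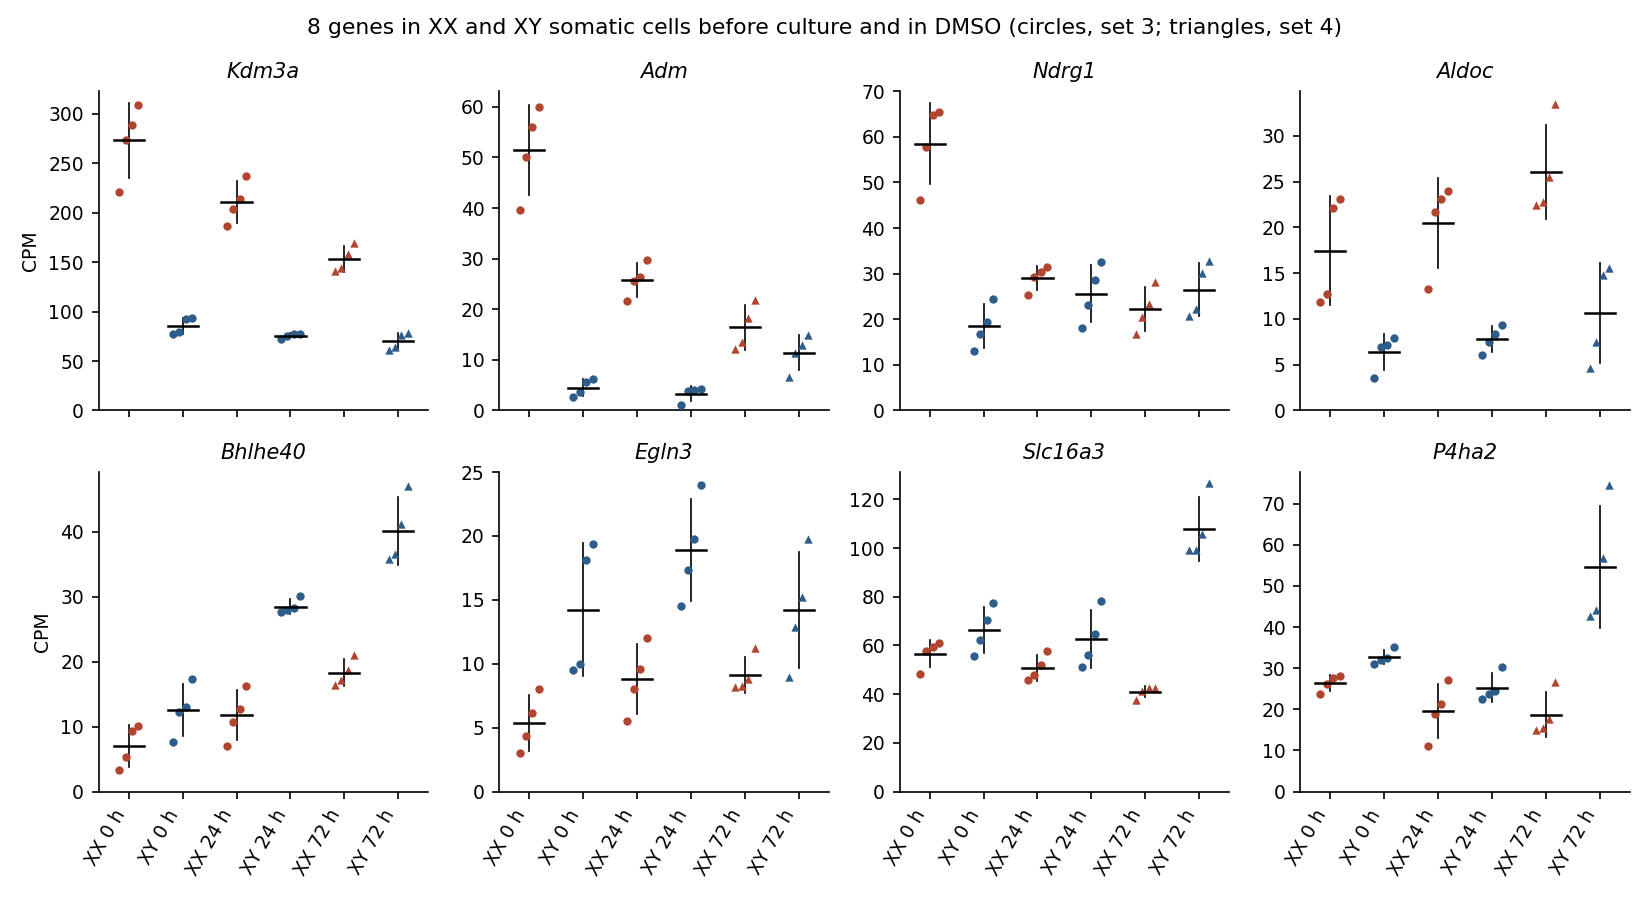
CPM (y axes, from 0) of 8 genes in XX (red) and XY (blue) somatic cells before culture and after 24 h and 72 h in DMSO (x axis); points are libraries (circles set 3, triangles set 4), horizontal bars means and vertical bars SD (n = 4). *Kdm3a* and *Aldoc* are higher in XX cells at all 3 times, and *Slc16a3* and *P4ha2* separate at 72 h, where *Slc16a3* is at 37.6 to 42.6 CPM in XX and 99.1 to 127 CPM in XY libraries.

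At 72 h, several genes were lower in XX cells that had not passed at 24 h. *Slc16a3*, the lactate exporter, was at 37.6, 41.5, 42.5 and 42.6 CPM in XX and 99.1, 99.3, 106 and 127 CPM in XY libraries (log2 -1.38, SE 0.15, FDR 4.07e-11). At 24 h the libraries were at 45.7, 48, 51.9 and 57.7 CPM and 51.1, 56.1, 64.5 and 78.3 CPM (FDR 0.11). Its difference between the sexes was larger at 72 h (difference of the log2 values -1.08, SE 0.20, FDR 0.000613). *P4ha2*, the other collagen prolyl hydroxylase subunit, was at 14.9, 15.6, 17.6 and 26.6 CPM and 42.6, 44, 56.7 and 74.6 CPM at 72 h (log2 -1.49, SE 0.22, FDR 3.72e-07). At 24 h it was at 11.1, 18.8, 21.4 and 27.1 CPM and 22.4, 23.6, 24.4 and 30.4 CPM (FDR 0.273, difference of the log2 values -1.14, SE 0.32, FDR 0.0376). *Pdk1* changed in the same direction between the times (difference -0.87, SE 0.24, FDR 0.0397). The *P4ha2* and *Pdk1* differences between times were kept in 5 of 16 and 6 of 16 fits with a library left out, and a replicate block or total counts without a composition factor left 1 and 2 of the 4 genes. At 72 h the interstitial markers summed to 909 to 1286 CPM in XX and 2316 to 2650 CPM in XY libraries, the Sertoli markers to 103 to 156 CPM and 468 to 663 CPM, and the pre-granulosa markers to 778 to 1042 CPM and 43.7 to 50.9 CPM. Their part in the differences at 72 h was not tested.

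*Hk2*, the inducible hexokinase, was at 48.3, 49.95, 53.9 and 65.2 CPM in XX and 87, 94.8, 95 and 106 CPM in XY libraries at 72 h (log2 -0.83, SE 0.15, FDR 1.14e-05). It was also lower in XX cells before culture, by less than 1.5-fold (log2 -0.47, FDR 0.0127). *Bnip3* was at 4.67, 9.39, 9.47 and 14 CPM and 13.9, 18, 24.2 and 28.8 CPM (log2 -1.20, SE 0.27, FDR 0.000491), with the highest XX library just above the lowest XY library. *Mxi1*, an antagonist of MYC, was lower in XX cells at 24 h, 17.1, 20.2, 20.8 and 24.1 CPM against 25.1, 32.1, 32.6 and 36 CPM (log2 -0.62, SE 0.20, FDR 0.0185). At 72 h it was at 14.5, 15.6, 17.6 and 22.5 CPM against 20.3, 20.8, 31.1 and 36 CPM (log2 -0.61, SE 0.22, FDR 0.0352). These calls were kept in 6 of 8 and 3 of 8 fits with a library left out. *Slc2a3* was at 4.67, 6.81, 7.94 and 9.98 CPM against 7.09, 12.4, 15.2 and 15.3 CPM at 72 h (log2 -0.79, SE 0.31, FDR 0.0493), kept in 2 of 8. *Pfkfb3* was at 5.29, 6.68, 8.7 and 10.8 CPM against 10.3, 15.1, 16.4 and 17.4 CPM at 24 h (log2 -0.86, SE 0.25, FDR 0.00556), kept in 8 of 8. The remaining passes, all smaller than 1.5-fold, were *Eno1* and *Ddit4* before culture (log2 -0.37 and -0.47), *Ldha* at 24 h (0.33), and *Gpi1*, *Bnip3l*, *Ddit4* and *P4ha1* at 72 h (0.27, 0.30, 0.50 and -0.43).

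The last comparisons asked whether inhibition of MEK1/2 or of FGF receptors in XY gonads changed these genes. MEKi changed 3 of 35 genes at 24 h, 1 of them a DEG, and 8 had an unadjusted p below 0.05, beside 4.36% of all genes changed and 3.27% DEGs. At 72 h it changed 3, all DEGs, and 8 again had an unadjusted p below 0.05, beside 11.3% and 6.47% of all genes. FGFRi at 72 h changed 1, by less than 1.5-fold, so that no gene was a DEG (2.44% of all genes changed and 1.8% were DEGs), although 5 had an unadjusted p below 0.05 and DESeq2 also called no DEG among them. At 24 h with FGFRi, whose control lies in the other set, the enzymes averaged 5.92 to 6.1 log2 CPM beside 6.02 to 6.18 in DMSO, and no test was made. The enzymes were also low with MEKi at 24 h (6.04 to 6.19 log2 CPM, against 6.81 to 6.97 before culture).

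*Hk2* passed the test with both inhibitors at 72 h, in opposite directions. It was then at 87, 94.8, 95 and 106 CPM in DMSO, 52.7, 54.1, 60.3 and 70.5 CPM with MEKi and 113, 123, 128 and 178 CPM with FGFRi. All MEKi libraries were below and all FGFRi libraries above all DMSO libraries. It fell with MEKi (log2 -0.67, SE 0.14, FDR 0.0012) and rose with FGFRi by less than 1.5-fold (log2 0.51, SE 0.14, FDR 0.0312). The direct comparison of the 2 inhibitors, which had the same dose and time, gave a log2 difference of -1.18 for MEKi against FGFRi (SE 0.14, FDR 2.23e-08). At 24 h *Hk2* was at 57.8, 72.7, 73.3 and 84.3 CPM in DMSO and 63.4, 64.3, 86.5 and 91.3 CPM with MEKi, which overlapped (FDR 0.833). The effect of MEKi differed between 72 h and 24 h (log2 -0.76, SE 0.20, FDR 0.0383, a difference that spans both sets and was the single one among the 35 genes, with 1.49% of all genes past the FDR and 1.41% DEGs). That difference was kept in 5 of 16 fits with a library left out, with an FDR of up to 0.121.

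**Figure D5:**
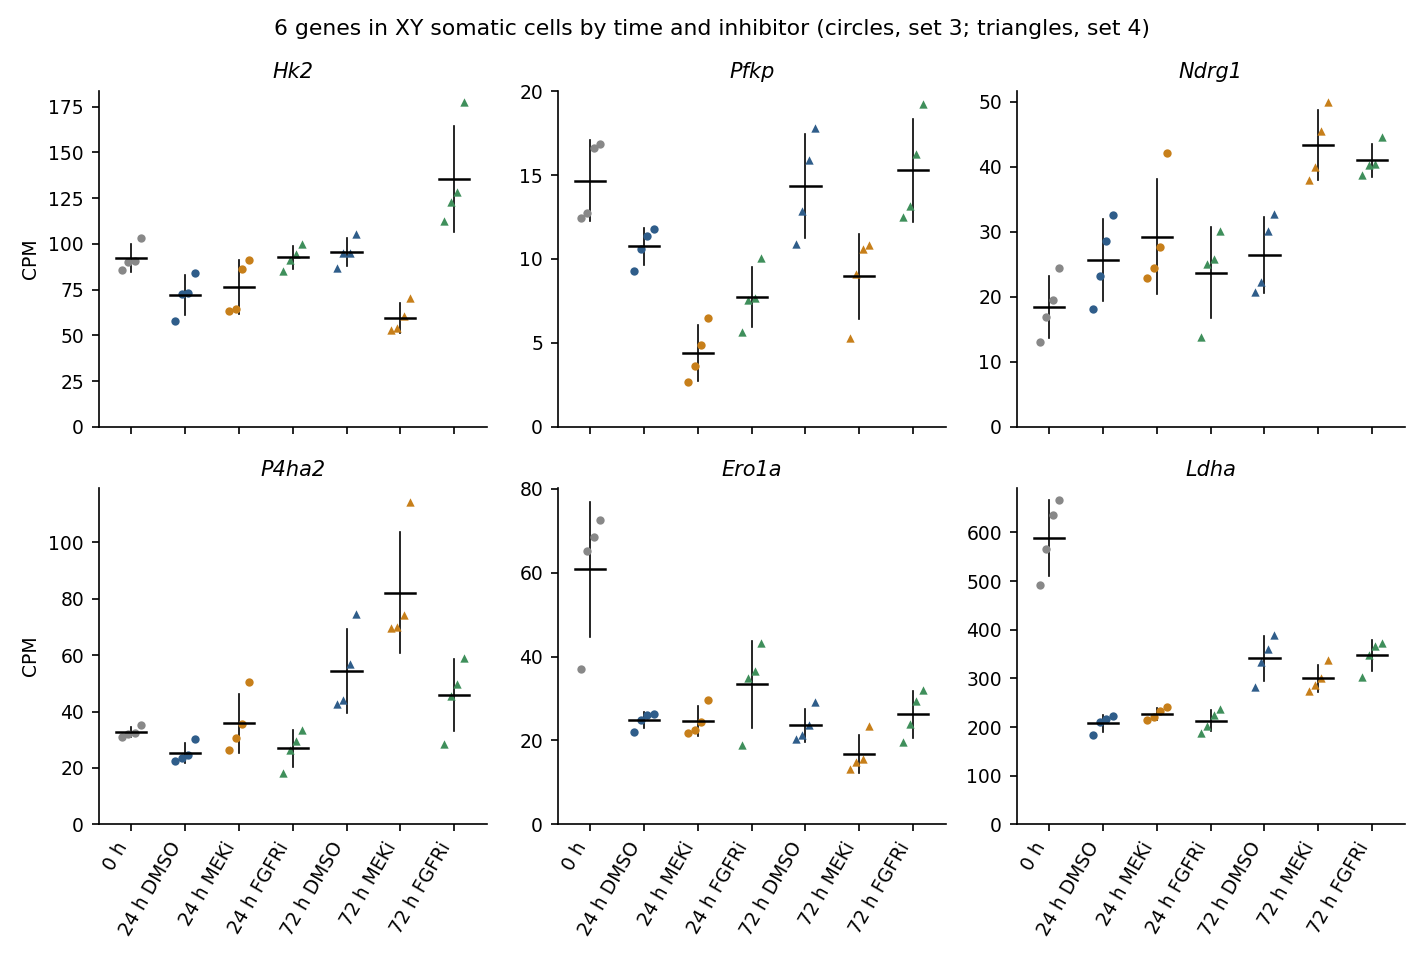
CPM (y axes, from 0) of 6 genes in XY somatic cells before culture (grey) and after 24 h and 72 h with DMSO (blue), MEKi (orange) or FGFRi (green) (x axis); points are libraries (circles set 3, triangles set 4), horizontal bars means and vertical bars SD (n = 4). *Hk2* at 72 h lies at 52.7 to 70.5 CPM with MEKi, 87 to 106 CPM in DMSO and 113 to 178 CPM with FGFRi, and *Ldha* is below its uncultured range in all cultured groups.

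*Pfkp* was the DEG with MEKi at 24 h, at 2.64, 3.62, 4.86 and 6.46 CPM against 9.28, 10.6, 11.3 and 11.8 CPM in DMSO, with no overlap (log2 -1.22, SE 0.33, FDR 0.0169). The call was lost without the DMSO library M4 (FDR 0.0526) or the MEKi libraries M2 (FDR 0.0778) or M6 (FDR 0.0768). At 72 h *Pfkp* was at 5.31, 9.11, 10.6 and 10.8 CPM with MEKi and 10.9, 12.9, 15.9 and 17.8 CPM in DMSO (FDR 0.124). *Aldoa* and *Higd1a*, a mitochondrial protein of the inner membrane, rose with MEKi at 24 h by less than 1.5-fold (log2 0.34 and 0.37, FDR 0.0417 and 0.0473). Several marker lists also differed between MEKi and DMSO at 24 h. All 6 endothelial markers were lower with MEKi (summed level 31.2 to 48.3 CPM against 150.2 to 216 CPM) and 3 of 4 germ cell markers were higher (226 to 422 CPM against 94.1 to 138 CPM). Of the other lists, 1 of 4 macrophage markers was lower (3.96 to 13.6 CPM against 17.4 to 41.5 CPM), 1 of 4 foetal Leydig markers was lower, and 1 of 5 Sertoli and 2 of 5 pre-granulosa markers were higher. The part of these lists in the values of *Pfkp*, *Aldoa* and *Higd1a* was not tested.

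At 72 h *Ndrg1* rose with MEKi, to 38, 39.9, 45.5 and 49.9 CPM from 20.8, 22.2, 30.1 and 32.8 CPM in DMSO (log2 0.70, SE 0.19, FDR 0.0136). It was at 38.8, 40.2, 40.4 and 44.6 CPM with FGFRi (FDR 0.0799). The MEKi call was lost without the DMSO library M5 (log2 0.60, FDR 0.0534). *P4ha2* rose with MEKi, to 69.8, 70.2, 74.4 and 114 CPM from 42.6, 44, 56.7 and 74.6 CPM (log2 0.61, SE 0.19, FDR 0.0308), with overlapping libraries. It was higher with MEKi than with FGFRi, where it was at 28.6, 45.5, 49.9 and 59.2 CPM (log2 0.84, SE 0.20, FDR 0.00247). The increase over DMSO was lost without the DMSO library M2 (FDR 0.137) or M5 (FDR 0.101) or the MEKi library M4 (log2 0.39, FDR 0.243). *Ero1a* was lower with MEKi than with FGFRi, 13.3, 15, 15.5 and 23.5 CPM against 19.6, 24, 29.4 and 32 CPM (log2 -0.67, SE 0.21, FDR 0.0328), kept in 3 of 8 fits with a library left out. Between the inhibitors 3 of 35 genes were DEGs (6.42% of all genes). *Hk1* and *Egln1* passed in none of the comparisons made. Marker lists also differed at 72 h. The Sertoli markers, 3 of 5 lower with MEKi than in DMSO, summed to 332 to 425 CPM with MEKi, 468 to 663 CPM in DMSO and 639 to 967 CPM with FGFRi. All 4 macrophage markers were lower with each inhibitor (14.4 to 23.1 CPM with MEKi and 5.83 to 18.9 CPM with FGFRi against 28.8 to 94.3 CPM). With MEKi 3 of 4 foetal Leydig markers were higher (811 to 1276 CPM against 392 to 596 CPM) and 4 of 6 endothelial markers lower (29.9 to 41.9 CPM against 54.4 to 108 CPM), with 1 pre-granulosa and 1 erythroid marker lower. With FGFRi 1 foetal Leydig marker was higher (521 to 960.4 CPM summed) and 1 interstitial marker lower. The interstitial markers summed to 2220 to 2966 CPM with MEKi and 1361 to 2285 CPM with FGFRi, and 4 of 5 were higher with MEKi than with FGFRi. The part of these lists in the results for the inhibitors was not tested.

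Pairs of paralogues were compared as the log2 ratio of their CPM in each library, in 7 pairs and 5 comparisons. A ratio is compared between groups only, since counts at the 3′ end of 2 genes may be caught with unequal efficiency. Of 35 two-sided exact permutation tests of 4 libraries against 4, none passed after Benjamini-Hochberg adjustment (adjusted p 0.143 or more). With 35 tests this design can pass the adjustment only where most of them reach the smallest p it allows, so the 0 passes carry little information, and 7 reached that p, 0.0286. Among these, the *Aldoc* to *Aldoa* ratio was -5.50 ± 0.31 and -6.77 ± 0.50 (mean ± SD of log2, n = 4) in XY cells after 24 h and before culture. The *P4ha1* to *P4ha2* ratio was -0.20 ± 0.28 and 0.81 ± 0.31 with MEKi and in DMSO at 72 h. The *Hk2* to *Hk1* ratio was 0.39 ± 0.17 and 1.01 ± 0.19 with MEKi and in DMSO at 72 h, and 1.75 ± 0.33 with FGFRi. The *Pfkp* to *Pfkl* ratio was -3.85 ± 0.55 and -2.59 ± 0.24 with MEKi and in DMSO at 24 h, and -3.23 ± 0.25 before culture. The seventh test was of *P4ha1* to *P4ha2* on the first day in XY cells (1.06 ± 0.23 and 1.46 ± 0.12).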

How the data were processed

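RNA was measured by 3′ RNA sequencing with unique molecular identifiers (UMIs) in 40 libraries of GFP-negative gonadal cells. The deposited values are raw UMI counts per gene. The authors used scPipe and Rsubread: the index and UMI were moved from read 1 to the header of read 2, reads were aligned to GRCm39 with GENCODE exons, and each UMI was counted once per gene. Tool versions are not given in the sources used here. These steps are described for the germ cell libraries and were taken to hold for the somatic libraries. UMI counting removes PCR copies, and since the tag lies at the 3′ end, no isoform can be told apart. The list of library names and indexes deposited beside the counts was used only in placing 1 library. One XY 24 h MEKi library, M2, is missing from the sample description but is named in the count table and library list, so it was kept, and values without it were computed. No value column lacked a sample (0 columns). Libraries of a group differed by more than counting noise in all 60 pairs (chi-square per degree of freedom 1.92 to 7.69), so none was counted as a repeat.

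Gene symbols came from GENCODE M39 (40391 of 42422 identifiers matched). Counts were filtered by group with filterByExpr, which left 15125 genes, scaled by TMM and fitted with the edgeR (4.0.16, R 4.3.3) quasi-likelihood test, with 1 mean per group, all 40 libraries in 1 fit, without a replicate block. P-values were adjusted over all genes tested by Benjamini-Hochberg (FDR). A gene passed at an FDR below 0.05, and a DEG also changed by at least 1.5-fold. CPM are counts scaled to the effective library size after TMM, and log2 CPM were computed with a prior count of 2. Paralogue ratios were compared by exact permutation. Members are given with each library's value where they were DEGs on the first day with a mean of at least 5 CPM, between XX and XY cells or with an inhibitor, and otherwise by ranges and counts. From 5 lists of companion genes the 3 largest increases and decreases that passed are named, with 6 HIF regulators, and 9 lists of markers were summed. The members and lists were chosen with earlier results of these data known. The added comparison of the sexes between 72 h and 24 h was chosen after seeing the data. Alternatives were other scalings, filters, sets of libraries in the fit, a replicate block, a test against a 1.5-fold threshold, voom with treat (limma 3.58.1), DESeq2 (1.42.0) and leaving out each library. Scripts were tested on simulated counts for the first day in XY cells, with changes set in genes with a mean of at least 5 CPM. Of these, 43.3% passed the FDR at 1.5-fold, 77.6% at 2-fold and 97% at 4-fold. A gene that did not pass may therefore still have changed by 1.5-fold. Between 1380707 and 4836550 counts per library set the precision, which for *Ankrd37*, *Car9*, *Pgk1* and *Adm* in XY cells was low. Precision was also low for the companion genes *Pfkfb2* and *Tigar*.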

Additional observations from a re-analysis of the deposited data

Results flagged for a closer look

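In 10 of the 350 groups of 4 libraries formed by the 35 tested genes (2.86%), 1 library stood apart from the other 3 by Dixon's criterion, which chance alone passes in about 1 in 20 groups. *Ero1a* was at 37.15 CPM in the XY 0 h library M6 (others 65.22 to 72.67), so the mean before culture is lower than that of the other 3 libraries. *Adm* was at 1.16 CPM in the XY 24 h DMSO library M5 (others 3.897 to 4.198). *P4ha2* was at 114.5 CPM in the XY 72 h MEKi library M4 (others 69.82 to 74.4), and without that library its increase with MEKi was log2 0.39 and did not pass, as it did not without either of 2 DMSO libraries. *Gpi1* was at 121.5 CPM and *Pgam1* at 19.26 CPM in the XY 24 h DMSO library M3 (others 132.5 to 134.4 and 23.41 to 24.09), and *Gpi1* at 113.0 CPM in the XY 72 h DMSO library M5 (others 129.9 to 131.9). In the XY 24 h FGFRi library M3 *Higd1a* was at 99.38 CPM (others 80.3 to 82.82) and *Pgk1* at 2.366 CPM (others 9.051 to 9.535). *Pdk1* was at 18.46 CPM in the XY 24 h MEKi library M1 (others 23.82 to 25.08), and *Gapdh* at 58.82 CPM in the XX 72 h library F11 (others 83.79 to 86.28).

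Effects that differed between groups by a test of the difference itself (edgeR, FDR below 0.05) were found for 11 values. The first-day log2 change in XX minus that in XY cells was 0.4911 for *Gpi1*, 0.6726 for *Aldoa*, 0.4825 for *Ldha*, -1.513 for *Ndrg1*, 0.8774 for *Ero1a* and 0.8582 for *Ddit4*. The effect of MEKi on *Hk2* at 72 h minus that at 24 h was -0.765. The log2 difference of XX from XY cells at 72 h minus that at 24 h was -0.8655 for *Pdk1*, -1.081 for *Slc16a3*, -2.346 for *Adm* and -1.14 for *P4ha2*, and these comparisons between times also span the library sets.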

How the results depend on the processing

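Of 105 log2 fold changes of the 36 genes that passed the FDR, none turned its direction in 1113 alternative values, 893 stayed past the FDR and 220 did not, and of 928 values with a library left out 771 stayed, 157 did not and 0 turned. Counts of DEGs among the 35 genes moved by over 1.5 times under few settings. A test against a 1.5-fold threshold left 8 on the first day in XY, 4 in XX and 1 for their difference, 4 between the sexes at 24 h and 6 at 72 h, 0 with MEKi at 24 h and 0 at 72 h, 1 between the inhibitors, 1 for FGFRi from 24 h to 72 h, 0 for the change of the MEKi effect and 1 for the change of the sex difference. With voom and treat these counts were 7, 2, 0, 4, 4, 0, 0, 1, 1, 0 and 0, and 4 between the sexes before culture. These tests ask for more than 1.5-fold, by construction a stricter demand. Without a filter FGFRi at 72 h had 1, and with total counts the change of the sex difference had 2, and the cause was not tested. When single libraries were left out, the counts ranged from 15 to 19 (first day XY), 11 to 14 (XX), 2 to 4 (their difference), 8 to 9, 7 to 9 and 8 to 12 (sexes at 0 h, 24 h and 72 h), 0 to 2 and 1 to 4 (MEKi at 24 h and 72 h), 0 to 1 (FGFRi at 72 h), 2 to 3 (between inhibitors), 8 to 12 (FGFRi from 24 h to 72 h), 0 to 1 (change of the MEKi effect) and 2 to 4 (change of the sex difference). A fit on the libraries of 1 set was not possible for the last of these and for the MEKi effect, which use both sets.

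The deviations of libraries of the same number were at most weakly correlated (r from -0.1562 to 0.1164), and the numbers were not taken as pairs. With 3 or more pairs 1 of 6 (first day XY), 2 of 6 (MEKi at 72 h and MEKi against FGFRi) and 5 of 8 libraries (FGFRi at 72 h) correlated best with their own number. With 2 pairs it was 4 of 4 for MEKi at 24 h (r 0.028 and 0.0996), 2 of 4 for FGFRi from 24 h to 72 h and 1 of 4 for the first day in XX. For MEKi at 24 h and FGFRi at 72 h the numbers may therefore mark pairs. A replicate block gave 2 DEGs for the first-day difference of the sexes, 0 for the change of the MEKi effect and 1 for the change of the sex difference, where the cause was not tested, and 17, 9, 1, 3, 0, 3 and 11 for the first day in XY and XX, MEKi at 24 h and 72 h, FGFRi at 72 h, MEKi against FGFRi and FGFRi from 24 h to 72 h. XX and XY libraries carry different letters (F and M) before their numbers, and some numbers occur in both sexes. These were not taken as pairs, so no block was made between the sexes. Whether XX and XY libraries of the same number deviate together was not tested.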
